A study of Mus musculus with 12 samples.

Results

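The 7 genes described here are Masp1 and 6 other genes of the complement system, C1ra, C2, C4b, C3, Cd55 and Cd59a. They were found by symbol in the table of raw read counts, which lists 24079 genes, and all 7 passed the minimum of 15 reads over the 12 libraries that left 17823 genes to test. Ribosome-bound mRNA was sequenced in 12 libraries of hippocampal CA1 pyramidal neurons, 6 per genotype (wild-type and Fmr1-/y), to learn which mRNAs differ on ribosomes when FMRP, the RNA-binding protein encoded by Fmr1, is missing. All mice were C57BL/6J males of 2 to 6 months that carried Wfs1-CreERT2 and the RiboTag allele, and both groups received tamoxifen at 100 mg/kg for 3 days, with tissue taken 1 week later. CreERT2 is driven by the Wfs1 promoter, so the HA-tagged ribosomal protein Rpl22 is made in the Wfs1-expressing cells of the hippocampus and was used to pull ribosomes out of whole hippocampus. Each library pooled 4 to 6 mice, so the spread between libraries is a spread between pools.

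Complement is a cascade of blood and tissue proteins that marks surfaces for removal or lyses them. It starts by the classical route, through the C1 complex, or by the lectin route, through the MASP proteases, and both cleave C4 and C2 to build the enzyme that cleaves C3. In the brain, C1q and C3 are known for tagging synapses that microglia then remove, and membrane-bound inhibitors protect host cells from the cascade.

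The libraries held 39400980 to 65565479 reads. Wild-type libraries held 1971 to 2608 reads of Fmr1, and the Fmr1-/y libraries none apart from 1 read in replicate 2, so the libraries matched their labels. The summed level of 6 CA1 pyramidal markers (among them Wfs1 and Camk2a) ranged from 7578 to 9309 CPM (counts scaled to library size) in wild-type and from 7267 to 8655 CPM in Fmr1-/y libraries. Markers of other cells were measured too: 8 astrocyte markers summed to 2417 to 3983 CPM, and 5 choroid plexus and ependymal markers, of which Ttr made up 95.6% of the wild-type sum, to 6232 to 17139 CPM. No marker of any list was at 0. In such bulk material, a change in how many cells of a type contribute and a change in RNA per cell cannot be told apart.

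Masp1 was the gene of the 7 with the largest difference, lower in Fmr1-/y, and C3 was lower too, while C1ra, C2, C4b, Cd55 and Cd59a were higher on average. No group of 6 libraries was fully apart from the other for any of the 7. Because the study called Masp1 in this same contrast and the genes were assembled around it, their differences between genotypes are given as a description and support nothing by themselves. Levels are CPM scaled by TMM (trimmed mean of M-values), and fold changes are log2 of Fmr1-/y over wild-type with their standard error (SE).

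Masp1 encodes, among other products, MASP-1, a serine protease that starts the lectin route. The gene lies on chr16:23451785-23521240 (GRCm38, RefSeq). The annotation holds 3 coding transcripts of 16, 11 and 9 exons, and 7 exons after the first are common to all of them. The gene is known to give the proteases MASP-1 and MASP-3 and the non-catalytic MAp44, and a count per gene cannot separate these products. In wild-type libraries Masp1 ran from 4.99 CPM through a median of 5.69 to 7.25 CPM. Among Fmr1-/y libraries it ran from 2.25 CPM through a median of 3.43 to 5.03 CPM. Of the 6 Fmr1-/y libraries, 5 were below every wild-type library, and replicate 2, the highest of its group, reached just above the lowest wild-type library. The wild-type mean was 5.91 ± 0.912 CPM (SD, n = 6), that of Fmr1-/y was 3.54 ± 0.946 CPM (SD, n = 6), or 59.8% of it, and the log2 fold change was -0.74 (SE 0.17). These levels rest on 138 to 360 reads per library.

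**Figure D1:**
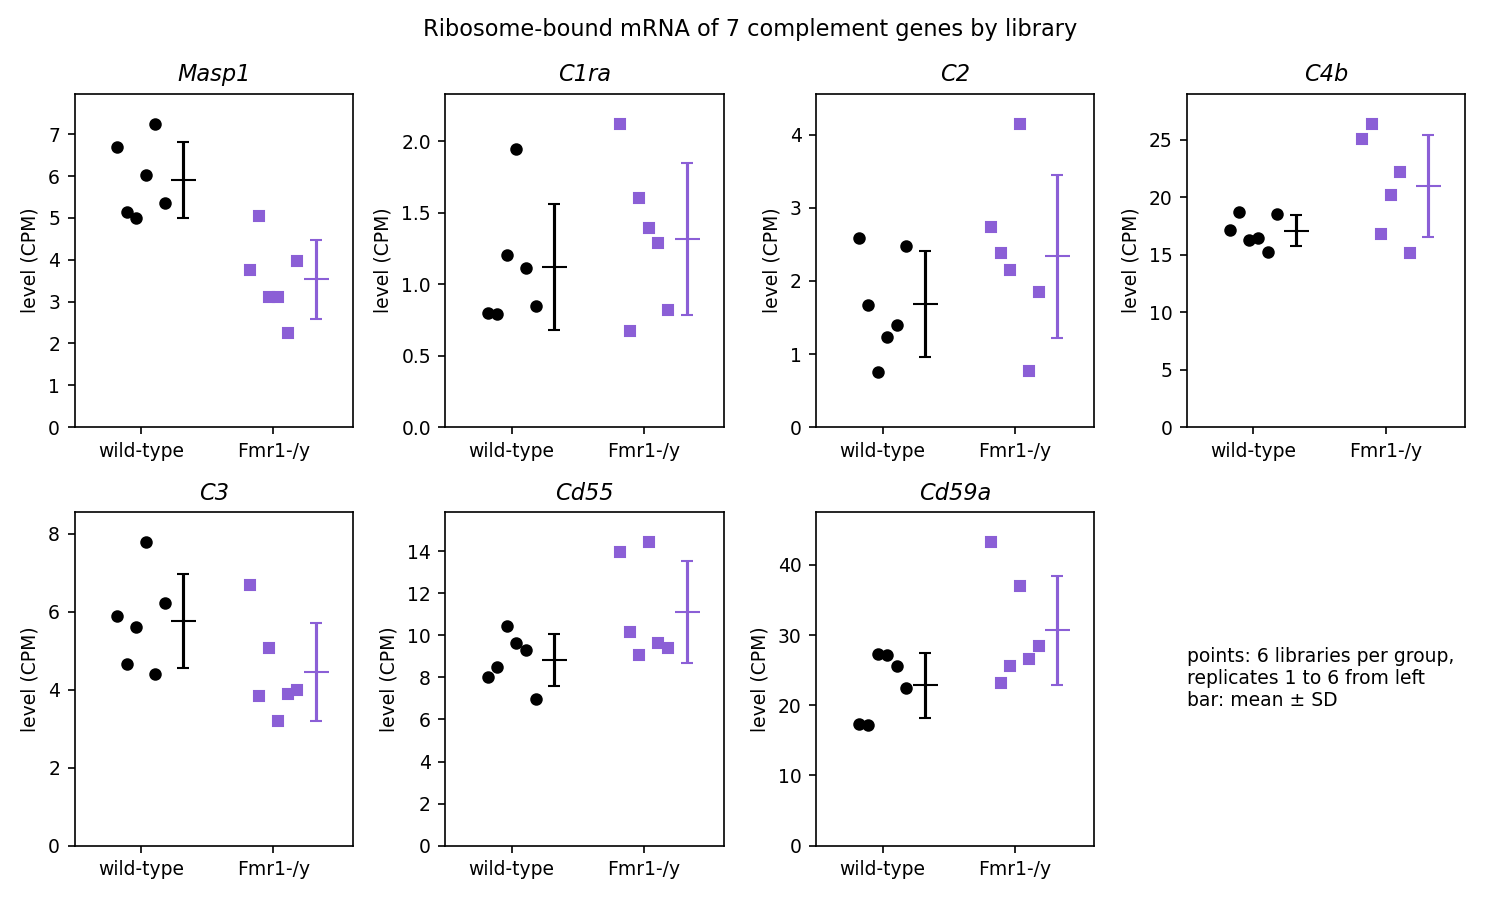
Level of each of the 7 complement genes (CPM, linear axis from 0) in 6 wild-type libraries (black circles) and 6 Fmr1-/y libraries (purple squares), in replicate order from left, with the mean ± SD beside each group. Of the Fmr1-/y libraries, 5 lie below all wild-type libraries for Masp1, 4 lie above all wild-type libraries for C4b, and the groups overlap for every gene.

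C1ra encodes C1r, the protease that becomes active inside the C1 complex and starts the classical route, and lies on chr6:124512621-124523440. It was the gene of the 7 with the fewest reads, at 33 to 115 per library. Wild-type libraries spanned 0.791 to 1.95 CPM with a median of 0.982 CPM, and Fmr1-/y libraries spanned 0.674 to 2.12 CPM with a median of 1.34 CPM. The groups overlapped almost fully, and the highest and lowest of all 12 libraries were Fmr1-/y replicates 1 and 2. The log2 fold change was 0.24 (SE 0.30), and it was 0.05 without Fmr1-/y replicate 1 and 0.47 without wild-type replicate 4. Its copy C1rb, with 5 reads in all libraries together, was not tested.

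C2 supplies the protease of the enzyme that cleaves C3 in the classical and lectin routes, and its gene lies on chr17:34862602-34882100. Its level varied more between libraries of one genotype than that of any other of the 7, with a highest-to-lowest ratio of 3.44 in wild-type and 5.41 in Fmr1-/y. Wild-type libraries lay between 0.752 and 2.58 CPM (median 1.54 CPM), and Fmr1-/y libraries between 0.766 and 4.15 CPM (median 2.26 CPM). The coefficient of variation was 42.7% and 47.6%, against 11.5% and 9.27% from counting reads alone. The log2 fold change was 0.47 (SE 0.34), and without Fmr1-/y replicate 4, the highest library, it was 0.22. C2 shares exon sequence with Gm20547 on its own strand, so part of its reads is uncertain. Its overlap with Zbtb12, like that of Cd55 with Gm16083, is on the other strand, which the stranded counting keeps apart.

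C4b encodes C4, which is cleaved at the start of both routes and binds covalently to surfaces, and lies near C2 on chr17:34728139-34743902. Wild-type libraries were close together, from 15.3 CPM through a median of 16.8 to 18.8 CPM. Fmr1-/y libraries ran from 15.2 CPM through a median of 21.2 to 26.4 CPM. Replicates 1, 2, 4 and 5 of Fmr1-/y were above every wild-type library, whereas replicate 6 was the lowest of all 12. The coefficient of variation was 7.89% in wild-type and 21.2% in Fmr1-/y, and the log2 fold change was 0.30 (SE 0.12). C4a, its near-identical copy, may share reads with it, and was at 0.245 ± 0.161 CPM (SD, n = 6) in wild-type.

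C3 is the protein on which all routes of complement converge, and its fragments tag surfaces for phagocytes. The gene lies on chr17:57203967-57228136. It spanned 4.41 to 7.78 CPM in wild-type (median 5.75 CPM) and 3.19 to 6.70 CPM in Fmr1-/y (median 3.95 CPM). Of the Fmr1-/y libraries, 4 were below every wild-type library, while replicate 1 was above 5 of the 6 wild-type libraries. The mean in Fmr1-/y was 77.2% of wild-type, with a log2 fold change of -0.37 (SE 0.18).

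Cd55 and Cd59a encode membrane inhibitors of complement: Cd55, or decay-accelerating factor, takes apart the enzymes that cleave C3, and Cd59a keeps the membrane attack complex from closing. They lie on chr1:130429798-130465009 and chr2:104095753-104115410. Cd55 ran from 6.99 CPM through a median of 8.91 to 10.5 CPM in wild-type and from 9.05 CPM through 9.90 to 14.4 CPM in Fmr1-/y. All Fmr1-/y libraries were above the wild-type median, and replicates 1 and 4 were above every wild-type library. The log2 fold change of Cd55 was 0.33 (SE 0.14). Cd59a ran from 17.2 CPM through 24.1 to 27.3 CPM in wild-type and from 23.1 CPM through 27.5 to 43.2 CPM in Fmr1-/y. Replicates 1, 4 and 6 of Fmr1-/y were above every wild-type library, with replicates 1 and 4 again the highest. The log2 fold change of Cd59a was 0.42 (SE 0.16), the mean was 134% of wild-type, and without replicate 1 the log2 fold change was 0.30. Its copy Cd59b had 0.464 ± 0.238 CPM (SD, n = 6) in wild-type, and reads shared between them could not be resolved.

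The levels of C1ra, Cd59a and Cd55 had pairwise r of 0.55 to 0.76 over 12 libraries with each genotype's mean subtracted, while C3 had r of 0.60 with C1ra but 0.34 with Cd59a and 0.05 with Cd55. The sequences upstream of a RefSeq transcript start are therefore shown for the first 3 genes (GRCm38.p6, 5′ to 3′ on the strand of the gene). The windows are C1ra (chr6:124512371-124512620, plus strand), Cd59a (chr2:104095551-104095752, plus strand) and Cd55 (chr1:130462745-130462994, minus strand). Those of C1ra and Cd55 hold 250 bases and that of Cd59a 202. The Cd55 window lies inside the gene span given above, upstream of a transcript start within the gene. Capitals mark a match to a searched motif.
C1ra: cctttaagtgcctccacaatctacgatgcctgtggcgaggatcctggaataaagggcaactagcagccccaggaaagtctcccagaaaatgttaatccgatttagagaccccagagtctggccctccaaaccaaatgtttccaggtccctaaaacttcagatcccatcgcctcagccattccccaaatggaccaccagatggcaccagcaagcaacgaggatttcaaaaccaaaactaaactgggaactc
Cd59a: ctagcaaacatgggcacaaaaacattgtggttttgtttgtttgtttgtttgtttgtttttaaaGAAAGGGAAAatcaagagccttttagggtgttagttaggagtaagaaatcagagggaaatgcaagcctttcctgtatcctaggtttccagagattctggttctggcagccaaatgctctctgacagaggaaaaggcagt
Cd55: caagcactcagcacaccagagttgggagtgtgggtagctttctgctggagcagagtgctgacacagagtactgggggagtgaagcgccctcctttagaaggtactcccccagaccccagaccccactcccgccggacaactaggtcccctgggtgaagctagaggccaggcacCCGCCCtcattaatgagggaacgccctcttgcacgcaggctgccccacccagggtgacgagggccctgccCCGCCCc

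Each was searched on both strands for the STAT motif TTCNNNGAA, the interferon-stimulated response element (GAAA, 2 free bases, GAAA), the GC box GGGCGG, the CCAAT box and TATAAA, and no matches overlapped. Over the upstream windows of 32851 RefSeq promoters, these occurred in 7.02%, 2.98%, 32.7%, 33.8% and 12.4%. Cd59a held GAAAGGGAAA, a match to the response element, at 139 bases before the end of its window. Cd55 held the GC box on the opposite strand at 7 and 77 bases before the end. C1ra held none of the 5, so the 3 windows shared no match. RefSeq's promoter table held 4 of the 7 genes. The C3 window, the fourth, was searched likewise and held none, and the promoters of Masp1, C2 and C4b were not analysed here.

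Per kilobase of exon, the wild-type levels of the 7 genes spanned a wide range. Cd59a was highest at 12.6 ± 2.57 CPM per kilobase (SD, n = 6), followed by C4b at 2.999 ± 0.237, Cd55 at 1.82 ± 0.255 and C3 at 1.12 ± 0.236 CPM per kilobase. Masp1 followed at 0.601 ± 0.0928, C2 at 0.435 ± 0.186 and C1ra at 0.375 ± 0.148 CPM per kilobase. In this order the library ranges of Cd55 and C3, of Masp1 and C2, and of C2 and C1ra overlapped, whereas those of Cd59a and C4b, of C4b and Cd55, and of C3 and Masp1 did not. Parts of this order depend on the length used: per longest coding transcript, chosen after the data were seen, Masp1 was at 1.11 ± 0.171 CPM per kilobase (SD, n = 6), overlapping C3 at 1.12 ± 0.236, and Cd55 at 3.48 ± 0.488 stood above C4b at 3.18 ± 0.251 with overlapping ranges.

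**Figure D2:**
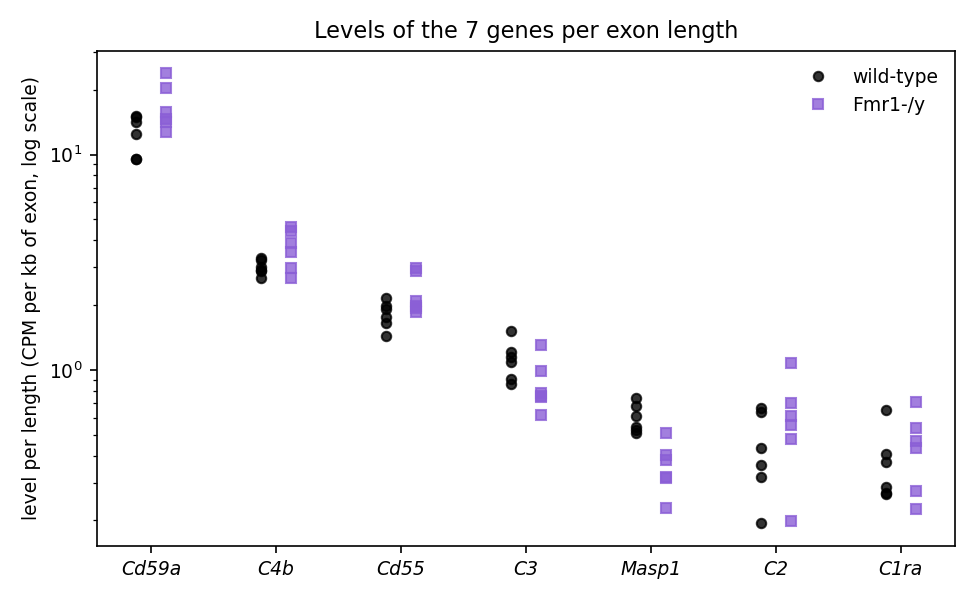
Level per kilobase of exon (CPM per kilobase, log axis) of the 7 complement genes, in order of the wild-type mean, with each of the 6 wild-type and 6 Fmr1-/y libraries as a point. In wild-type, Cd59a stands at 12.6 and C1ra at 0.375 CPM per kilobase, and the libraries of C2 and C1ra overlap.

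The quasi-likelihood test of edgeR passed none of the 7 genes at an adjusted threshold of 0.05, and it called 0.0224% of the genes tested, all of them lower in Fmr1-/y (0.0224% lower, 0% higher). The adjusted p of Masp1 was 0.199 in edgeR, and the other 6 had 0.476 to 0.920. At an unadjusted p under 0.05, Masp1 was lower and C4b, Cd55 and Cd59a were higher, against 3.67% of all genes lower, 4.29% higher and 7.96% in either direction. DESeq2, the package the authors used, called Masp1 in its Wald test (adjusted p = 0.0101) and none of the other 6. It called 0.471% of all genes (0.297% lower, 0.174% higher). Groups that did not overlap were found for 0.41% of genes lower in Fmr1-/y and 0.213% higher, and for none of the 7. Nothing is read from these counts, since the same contrast chose the genes.

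The other complement genes came from 6 lists ordered by role, with 61 genes of which 51, the 7 included, were tested. Among the 44 others, edgeR, DESeq2 and limma voom called none at an adjusted p under 0.05, and the lowest adjusted p in edgeR was 0.301. At an unadjusted p under 0.05 there were 7 (15.9%, against 7.96% of all genes): Sez6l, Susd4 and Csmd2 lower and Clu, Vtn, C5ar1 and Cfi higher in Fmr1-/y. Cfi reached the 15-read minimum through the Fmr1-/y libraries alone, which fixed its direction, and without it there were 6 of 43 (14%). The fitted log2 fold change was positive for 63.6% of the 44 (62.8% without Cfi) and for 51.4% of all genes. The median was 0.0923 for the 44 (0.0868 without Cfi) and 0.0042 for all genes. Cfi, which encodes the protease that inactivates C3b, had no read in wild-type and 15 reads in Fmr1-/y over all libraries. These came from Fmr1-/y replicates 4, 5 and 6 (6, 6 and 3 reads), and replicates 1, 2 and 3 had none. With wild-type set to a floor of 3 reads over the group, the log2 difference was 2.11, which rests on these few reads.

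Of the recognition molecules, the 3 chains of C1q, which binds targets and starts the classical route, differed between the groups by less than their SE. C1qa was at 18.3 ± 2.39 CPM (wild-type) and 19.2 ± 2.29 CPM (Fmr1-/y; SD, n = 6), a log2 fold change of 0.07 (SE 0.10). C1qb and C1qc had log2 fold changes of 0.08 (SE 0.10) and 0.05 (SE 0.09). Masp2, the other MASP gene, which cleaves C4 and C2, had a log2 fold change of -0.11 (SE 0.21), against -0.74 for Masp1. In the central group, Cfp, or properdin, which stabilizes the alternative-route enzyme, was at 3.68 ± 0.761 CPM (wild-type) and 4.84 ± 1.42 CPM (Fmr1-/y; SD, n = 6), with a log2 fold change of 0.40 (SE 0.19). Of the terminal components, Hc, which encodes C5, had a log2 fold change of 0.22 (SE 0.34), and C8g of 0.26 (SE 0.33). C7, which joins the membrane attack complex, was at 0.294 ± 0.135 CPM (wild-type) and 0.127 ± 0.0876 CPM (Fmr1-/y; SD, n = 6), a log2 fold change of -1.19 (SE 0.60). The C7 value rests on only 80 wild-type and 41 Fmr1-/y reads in total, with an adjusted p of 0.650 in edgeR.

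Of the 12 membrane regulators tested, 5 had positive log2 fold changes (Cd55, Cd59a, Cd46, Cr1l and Cd59b) and 7 negative ones (Csmd1, Csmd2, Csmd3, Susd4, Sez6, Sez6l and Sez6l2), with a median of -0.06. Sez6l had 384 ± 23.1 CPM (wild-type) and 331 ± 20.3 CPM (Fmr1-/y), each SD over 6 libraries, with a log2 fold change of -0.21 (SE 0.06). It had adjusted p = 0.301 in edgeR and 0.0543 in DESeq2. Sez6 had a log2 fold change of -0.15 (SE 0.09) and Sez6l2 of -0.02 (SE 0.06).

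The secreted regulators were mostly higher in value, with 7 of 8 positive and a median log2 fold change of 0.24, and none was called. Vtn, or vitronectin, which blocks the terminal complex, was at 87.3 ± 19.3 CPM (wild-type) and 113 ± 27.9 CPM (Fmr1-/y; SD, n = 6), a log2 fold change of 0.38 (SE 0.16). Clu, or clusterin, with the same role, had a log2 fold change of 0.21 (SE 0.10). Among the receptors, Itgam and Itgb2, the chains of the microglial receptor for cleaved C3, had log2 fold changes of -0.10 (SE 0.12) and 0.05 (SE 0.14), and Cd93 of -0.12 (SE 0.18).

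**Figure D3:**
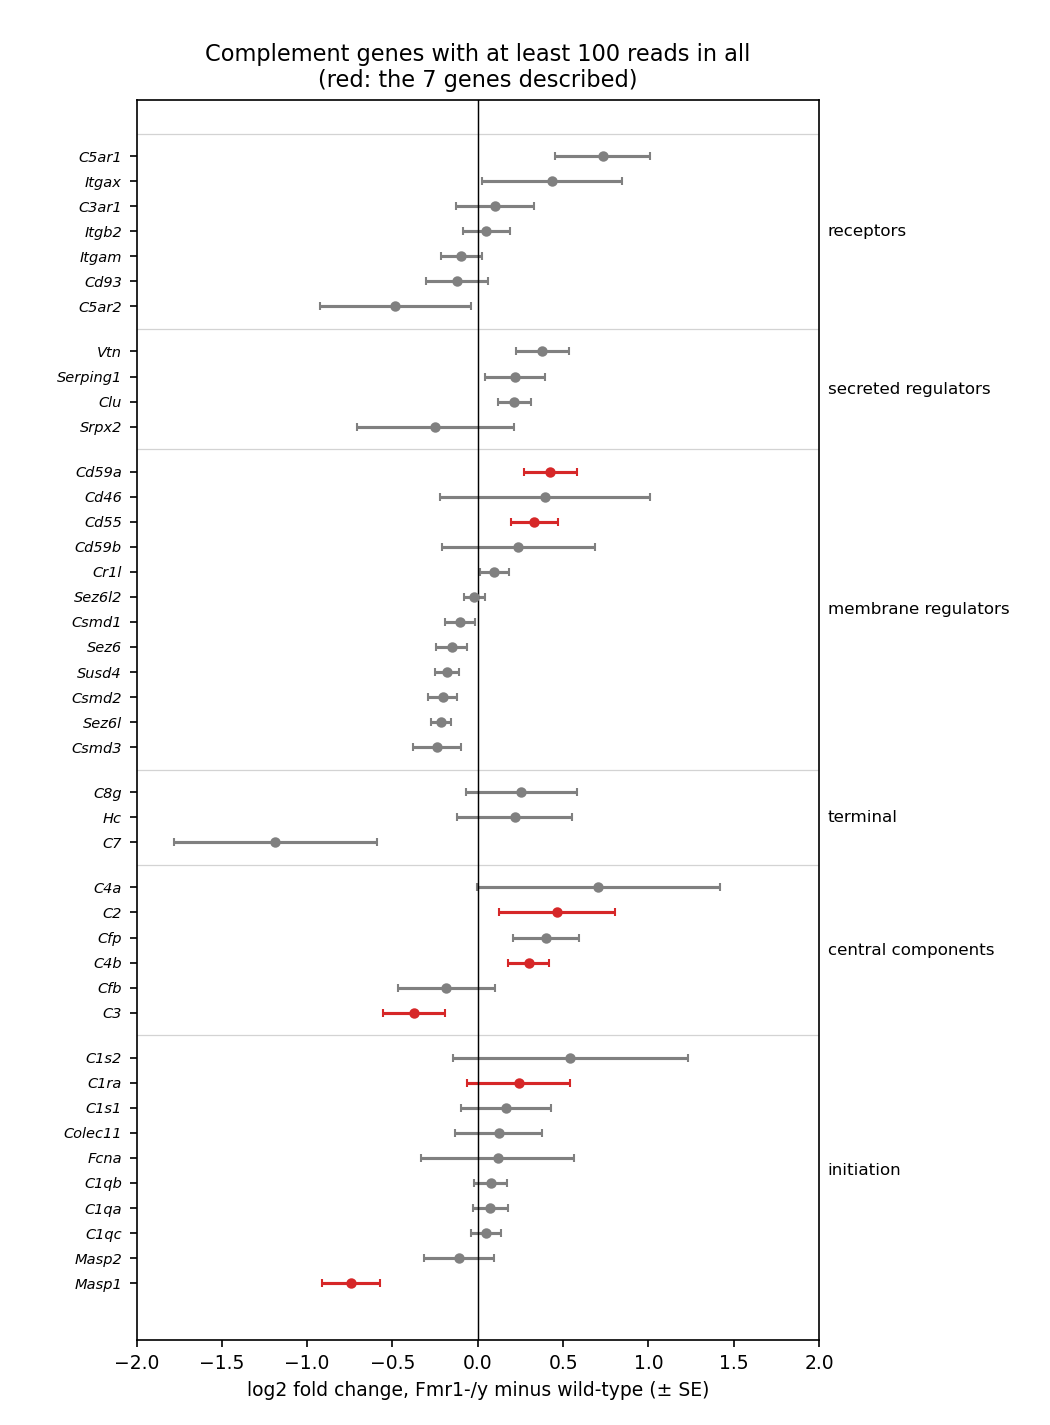
Log2 fold change (Fmr1-/y minus wild-type, bars ± SE from edgeR) of 42 complement genes that had 100 or more reads in total, grouped by role, with the 7 genes described in red. Masp1 lies at -0.74, below the other genes plotted in its list, and C1qa, C1qb and C1qc lie within 0.08 of 0.

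Cd59a varied with the choroid plexus and ependymal markers from library to library, and no other relation of the 7 genes to a marker list passed the test. Over 9 marker lists and 7 genes, 63 relations were computed on log2 levels with the mean of each genotype subtracted, so that the genotype difference does not enter. For Cd59a and the choroid plexus and ependymal sum, Pearson's r was 0.90 (permutation p = 0.00026, adjusted 0.0164) and Spearman's rho was 0.94 (permutation p = 0.00022, adjusted 0.0139), with r of 0.84 without the 2 farthest libraries. Taken within wild-type and within Fmr1-/y libraries alone, r was 0.83 and 0.96. By either coefficient this was the only one of the 63 relations to pass an adjusted threshold of 0.05. It did not rest on Ttr: over the 4 other markers of that list r was 0.90.

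The next 5 relations, tied at an adjusted p of 0.0859 for Pearson's r, missed the threshold. C1ra with the choroid plexus and ependymal sum gave r = 0.81 (permutation p = 0.00312, adjusted 0.0859) and rho = 0.77 (permutation p = 0.0104, adjusted 0.164), and r was 0.80 without the 2 farthest libraries. Cd55 with the same sum gave r = 0.76 (permutation p = 0.00794, adjusted 0.0859) and rho = 0.71 (permutation p = 0.0206, adjusted 0.216), and r was 0.59 without those 2 libraries. C4b with the astrocyte sum gave r = 0.85 (permutation p = 0.00643, adjusted 0.0859) and rho = 0.80 (permutation p = 0.00626, adjusted 0.164), and r was 0.81 without the 2 farthest libraries. C1ra with the interneuron sum gave r = 0.69 (permutation p = 0.00561, adjusted 0.0859) and rho = 0.66 (permutation p = 0.038, adjusted 0.299), and r was 0.52 without the 2 farthest libraries. C1ra with the CA1 sum gave r = -0.76 (permutation p = 0.00818, adjusted 0.0859) and rho = -0.69 (permutation p = 0.0277, adjusted 0.249), and r was -0.68 without the 2 farthest libraries. For Masp1 no relation passed, with r of -0.21 to the choroid plexus and ependymal sum and 0.27 to the astrocyte sum.

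**Figure D4:**
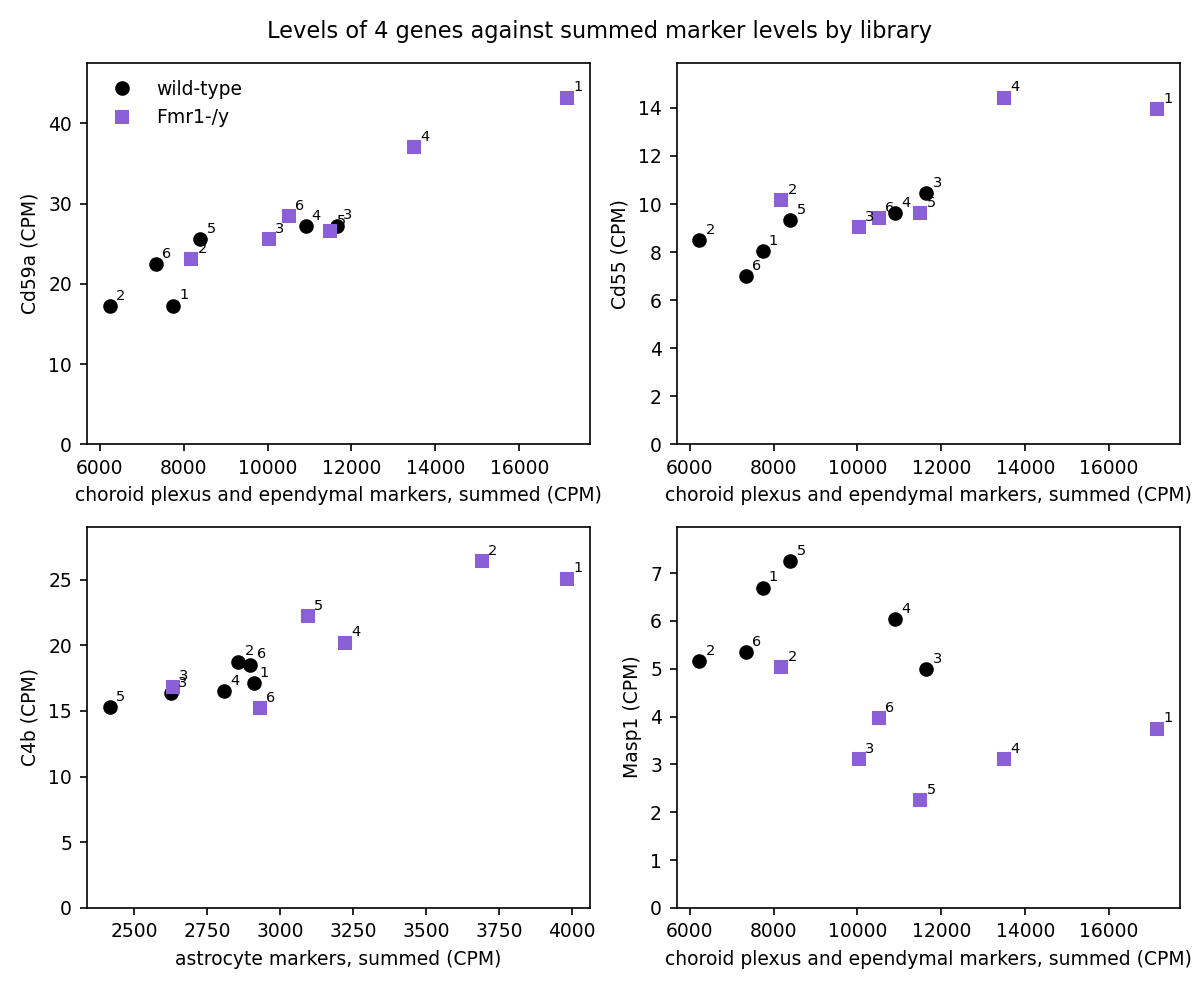
Level of Cd59a, Cd55 and Masp1 (CPM) against the summed level of 5 choroid plexus and ependymal markers (CPM), and of C4b against the sum of 8 astrocyte markers (CPM), with each library numbered by replicate. Fmr1-/y replicates 1 and 4 are highest on both axes for Cd59a and Cd55, and 5 of the 6 Fmr1-/y libraries lie below all wild-type libraries for Masp1.

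These marker sums also differed in value between the genotypes. The choroid plexus and ependymal sum spanned 6232 to 11644 CPM in wild-type and 8183 to 17139 CPM in Fmr1-/y libraries, with Fmr1-/y replicates 1 and 4 above all others. The astrocyte sum spanned 2417 to 2909.5 CPM and 2633 to 3983 CPM, and the endothelial sum 32.6 to 48.3 CPM and 43.3 to 62.8 CPM. The groups overlapped in each. The mean of the choroid plexus and ependymal sum was higher in Fmr1-/y by 0.44 on the log2 scale, with 5 of 5 markers positive (exact permutation p = 0.0779, adjusted over 9 lists 0.144). The astrocyte sum was higher by 0.24, with 8 of 8 markers positive (exact permutation p = 0.0325, adjusted 0.144), and the endothelial sum by 0.40, with 5 of 5 positive (exact permutation p = 0.0152, adjusted 0.136). The microglial sum ranged from 65.6 to 80.5 CPM in wild-type and from 66.9 to 89.5 CPM in Fmr1-/y (exact permutation p = 0.468, adjusted 0.550). The CA1 sum was lower in Fmr1-/y (log2 ratio -0.12, exact permutation p = 0.0693, adjusted 0.144). The log2 ratio was -0.17 for oligodendrocytes, -0.16 for CA3 and dentate, -0.13 for interneurons and 0.08 for mural and meningeal cells, and none of the 9 lists passed after adjustment.

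With a marker sum as a covariate in edgeR's fit, the fold changes of the 7 genes went different ways. With the choroid plexus and ependymal sum, Cd59a went from 0.42 to 0.05 (SE 0.11), Cd55 from 0.33 to 0.09 (SE 0.13) and C1ra from 0.24 to -0.32 (SE 0.28). With the astrocyte sum, C4b went from 0.30 to 0.01 (SE 0.11), and with the endothelial sum to -0.02 (SE 0.15). Masp1 was at -0.87 (SE 0.22) with the astrocyte sum, -0.65 (SE 0.20) with the choroid plexus and ependymal sum, -0.69 (SE 0.25) with the endothelial sum and -0.81 (SE 0.18) with the microglial sum. Its adjusted p in edgeR was 0.980 with the astrocyte, 0.844 with the choroid plexus and 0.235 with the microglial sum, against 0.199 without a covariate. It passed the threshold with none of the sums. C3 was lower than without a covariate with each of them, at -0.48 to -0.65. The choroid plexus and endothelial covariates were chosen after the data were seen. The astrocyte, choroid plexus and endothelial sums themselves differed in value between genotypes, so these fits cannot separate cell content from genotype. The part of these cells in the differences was not tested.

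**Figure D5:**
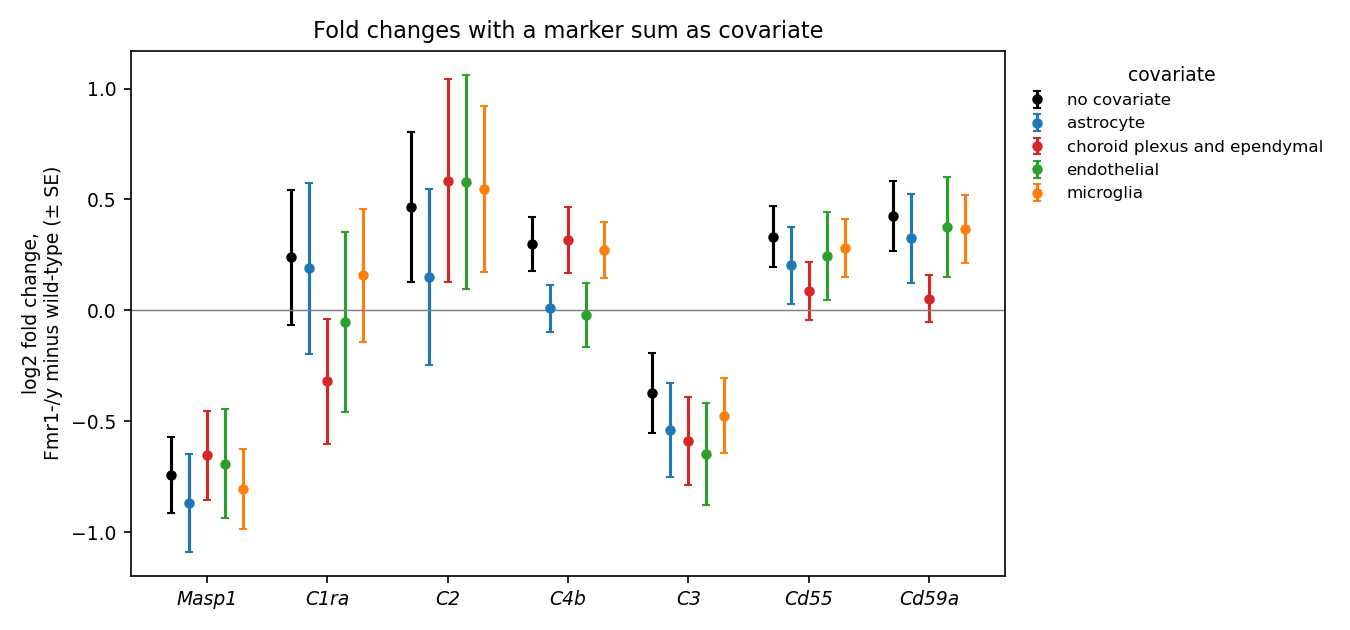
Log2 fold change (Fmr1-/y minus wild-type, bars ± SE) of the 7 complement genes in edgeR's fit with no covariate and with the summed markers of astrocytes, choroid plexus and ependyma, endothelium or microglia as a covariate. Masp1 stays between -0.87 and -0.65, with a larger SE with each covariate than without, and passes the adjusted threshold in none of these fits. Cd59a goes from 0.42 to 0.05 with the choroid plexus covariate and C4b from 0.30 to 0.01 with the astrocyte covariate.

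The 7 genes did not vary as one group. With each genotype's mean subtracted, Cd59a and Cd55 were the most alike (r = 0.76 over 12 libraries), followed by C1ra and Cd59a (r = 0.74), and Masp1 had r of -0.31 to 0.44 with the others. The genes most like Cd59a among 13767 searched were Tgfb2 (r = 0.96), Crhr2 (r = 0.95) and Car14 (r = 0.94), and those most like Cd55 were Lmx1a, Fzd4 and Pcdhgc3 (each r = 0.91). For C1ra they were Dock5, Ubxn10 and Tmem67 (each r = 0.94), and for C4b Slc25a18, Slc25a34 and Rbbp8 (each r = 0.91). For Masp1 they were Gpr62, Hnrnpa1 and Ppih (r = 0.90, 0.89 and 0.88), for C3 Ifnar2, Ehd2 and Crygn (r = 0.91, 0.89 and 0.89), and for C2 Cdh1, Fmod and Col9a2 (each r = 0.89). These r values are the highest of many and are given as a description.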

How the data were processed

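The authors isolated HA-tagged polyribosomes, made stranded polyA libraries, aligned the reads with TopHat2 2.1.1 and Bowtie2 2.2.8 to mm10 and counted them per gene with HTSeq 0.6.1p1. The deposited values are raw counts per gene, without normalization. Here genes with at least 15 reads in total were tested with edgeR 4.0.16 in R 4.3.3 (TMM, quasi-likelihood, no covariate, Benjamini-Hochberg, threshold 0.05). DESeq2 1.42.0, limma 3.58.1 voom, other scalings and filters, a replicate block, marker covariates and each library left out were alternatives. The authors themselves removed genes under 15 reads and used an earlier DESeq2 at an adjusted p under 0.05, so DESeq2 is the alternative nearest to their test. SEs were obtained as the absolute log2 fold change over the root of the F statistic. Marker sums were compared by two-sided exact permutation, and relations to them by 100000 permutations. Lengths per kilobase are union exons (GENCODE, GRCm38). The 7 genes and all lists were chosen with earlier results of these data known. Genes named beyond the 7 are the 3 highest by mean CPM in each complement list, and the 3 most alike per gene at a mean of at least 1 CPM. Others (Masp2, C5ar1, Cfi, Susd4, the Csmd genes, Cd46, Cr1l and the copies) were named after their values were seen. The values of 1 complement gene are not reported here, though it enters the counts over its list. The scripts were tested on simulated counts. The lane of each library is not given in the sources used here.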

Additional observations from a re-analysis of the deposited data

Results flagged for a closer look

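Over 62 groups of 6 libraries, 2 had a library whose gap to the nearest other exceeded Dixon's critical share of the range, and chance gives about 1 in 20. C1ra in wild-type replicate 4 was at 1.95 CPM, against 0.791 to 1.21 CPM in the other 5 (gap 0.639 of the range). Clu in Fmr1-/y replicate 1 was at 1161 CPM, against 713 to 880.0 CPM (gap 0.627).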

How the results depend on the processing

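The count of 4 genes called, all lower in Fmr1-/y, was 84 (53 lower, 31 higher) in DESeq2 and 82 (52 lower, 30 higher) with its fold change prior. It was 2 (2 lower) with the astrocyte or microglial covariate and 1 (1 lower) with the choroid plexus or endothelial covariate. Leaving out each library gave 2 to 6 called, with 2 to 5 lower and 0 to 1 higher: 2 without any of wild-type replicates 4 to 6 or Fmr1-/y replicates 1, 4, 5 and 6, and 6 without Fmr1-/y replicate 2. Of complement genes none was called, against 1 (Masp1) in DESeq2 with or without the prior, and 0 to 0 with a library left out. A fit with the replicate block called 4 genes and no complement gene, and Masp1 was at -0.77 (adjusted p = 0.182 in edgeR). Whether libraries of the same replicate number were paired is not given in the sources used here. With each genotype's mean subtracted from the log2 levels, same-numbered libraries correlated at -0.08 to 0.09. No wild-type library correlated best with the Fmr1-/y library of its own number. These values cannot decide whether such libraries shared a litter, day or lane. Of 168 comparisons of the 7 genes with alternatives, 3 reversed: C4b with the endothelial covariate (-0.0215), and C1ra with the choroid plexus (-0.32) and endothelial (-0.0525) covariates. Masp1 stayed negative, from -0.87 to -0.43, with adjusted p of 0.0101 to 1.0, and from -0.87 to -0.64 with a library left out. The marker sums reversed for interneurons without wild-type replicate 4 (0.0162) and for mural and meningeal cells without Fmr1-/y replicate 1 (-0.00845). With Fmr1-/y replicate 3 left out, the astrocyte sum (0.30, adjusted exact permutation p = 0.0195) and the endothelial sum (0.45, adjusted exact permutation p = 0.0390) passed the threshold. Leaving out each library gave 0.18 to 0.30 for astrocytes, 0.35 to 0.46 for endothelium, 0.30 to 0.54 for choroid plexus, -0.15 to -0.10 for CA1, 0.0091 to 0.10 for microglia, -0.24 to -0.10 for oligodendrocytes, -0.01 to 0.14 for mural and meningeal cells, -0.22 to 0.02 for interneurons and -0.19 to -0.11 for CA3 and dentate. C1ra and C2 had few reads, 33 to 199 per library, but both varied more than counting reads alone would give. The coefficient of variation of C1ra was 39.5% in wild-type and 40.2% in Fmr1-/y, against 14.3% and 12.1% from counting. For C2 it was 42.7% and 47.6%, against 11.5% and 9.27%.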
